A study of Mus musculus with 28 samples.

Results

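The genes described here encode oxidative phosphorylation, the respiratory chain and ATP synthase of the mitochondrial inner membrane. They were taken by symbol from the whole expression table, as all genes named Nduf (with the letters a, b, c, s or v, and the assembly factors Ndufaf), Sdh, Uqcr, Cox4 to Cox8 or Atp5, together with the protein-coding genes of the mitochondrial genome, without symbols marked as pseudogenes. This gave 109 of 53801 features, 96 encoded in the nucleus and 13 in the mitochondrial DNA. The libraries are bulk RNA-seq of Treg cells, the suppressive CD4 T cell lineage, sorted as TCR+CD4+CD25hi CD127lo cells from the spleens or the forebrain tumors of mice carrying CT2A, a murine GBM cell line. All mice bore a tumor and received 4 doses of 250 µg, 3 days apart, of either the control antibody IgG2a or αPD1 + αGITR, an antibody pair against an inhibitory and a costimulatory receptor, and tissue was taken 2 days after the last dose. The groups compared hold 7 spleens and 5 tumors after IgG2a and 8 spleens and 7 tumors after αPD1 + αGITR. The submitters state that each spleen and each tumor sample came from a different mouse. The animal numbers in the study's figure legend match the tumors of each group but not the spleens. Whether some spleens, or a spleen and a tumor, came from the same mouse is therefore not settled. The numbers in the library labels also repeat within groups, as in spleen_79_a to spleen_79_d after IgG2a and spleen_70_a to spleen_70_c after treatment. What a number marks is not given. Libraries were treated as independent, so the p-values may be too small if a repeated number marks a shared origin. The age of the mice is not given in the sources used here.

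Respiratory complexes I, III and IV pass electrons from NADH and ubiquinol to oxygen and pump protons, complex II feeds electrons in from succinate, and complex V makes ATP from the proton gradient. Every complex but complex II contains subunits from both genomes. The nuclear genes are transcribed one by one in the nucleus, whereas the mitochondrial genes are transcribed together as long polycistronic RNAs that are cut into single messages, so the mRNA levels of both sets are set by separate machineries. Treg cells are known for a strong reliance on oxidative metabolism. The expression values are TPM (transcript abundances scaled to a fixed library total), which correct for transcript length, so that levels can be compared between genes but a rise of some features lowers all others. Fewer cells of a type and less RNA per cell cannot be told apart in such bulk libraries.

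The sorted cells carried Treg transcripts. All 6 Treg markers, Foxp3 among them, were above 0 in all 27 libraries, and their summed level was 148 to 1525 TPM in spleen and 842 to 1602 TPM in GBM. Transcripts of other cells were present as well. The summed level of 6 macrophage and microglia markers was 6.81 to 224 TPM in spleen and 13.6 to 3706 TPM in GBM, with the highest value in tumor_79_a of the IgG2a group, and 4 hemoglobin genes summed to 8.01 to 28321 TPM in spleen and 0 to 2371 TPM in GBM. The numbers of genes above 1 TPM ranged from 7702, in tumor_369_a of the IgG2a group, to 17460. Between 31.9% and 78.3% of each library lay in its 10 most abundant features. No read totals come with these values, so depth is unknown here.

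Among the 96 nuclear members, 83 are structural subunits and 13 are assembly or coupling factors. Complex I holds 44 of the nuclear members, 8 of them Ndufaf assembly factors, complex II 8, complex III 8, complex IV 20 and complex V 16. The mitochondrial genes give 7 subunits to complex I, 1 to complex III, 3 to complex IV and 2 to complex V. The highest nuclear mean levels over all libraries were those of Cox5b, a complex IV subunit, at 381 TPM, Cox8a, another, at 368 TPM, Atp5b, the catalytic beta subunit of ATP synthase, at 327 TPM, Atp5d, its delta subunit, at 326 TPM, and Cox4i1 at 274 TPM. These 5 genes made up 25.8% of the summed nuclear level. At the other end, the 8 isoforms that are typical of muscle, testis or lung or are induced by hypoxia (Cox4i2, Cox6a2, Cox6b2, Cox7a1, Cox7b2, Cox8b, Cox8c and Ndufa4l2) together made up 0.0402% of it, and the highest mean among them was 1.01 TPM, of Cox6b2. Of the nuclear members, 78 had a mean above 10 TPM and 44 were above 1 TPM in every library.

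**Figure D1:**
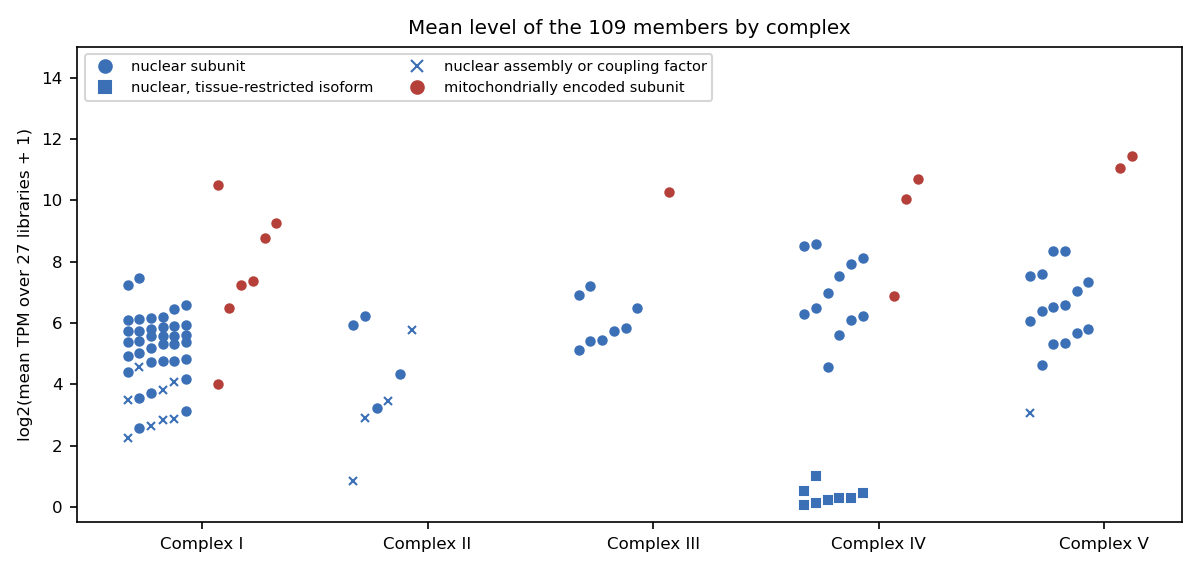
Mean TPM over the 27 libraries of each of the 109 members, as log2(mean TPM + 1) on the vertical axis, by complex on the horizontal axis, with nuclear members in blue and mitochondrial members in red. The 8 tissue-restricted isoforms of complex IV sit at the bottom, and the mitochondrial members reach the highest levels, up to a mean of 2784 TPM for mt.Atp6.

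Of the 13 mitochondrial members, 8 had a higher mean than every nuclear member. The highest means were 2784 TPM for mt.Atp6 and 2127 TPM for mt.Atp8, both of complex V and read from overlapping frames that share 43 bases, 1648 TPM for mt.Co1, the catalytic subunit of complex IV, 1453 TPM for mt.Nd1 of complex I and 1246 TPM for mt.Cytb, the only mitochondrial subunit of complex III. The level of some mitochondrial genes is uncertain, because 7 of the 13 have a near-identical copy in the nuclear genome on chromosome 1 that has a row of its own in the table. The copy Gm28437 matched mt.Co3 at 100% identity and had a mean of 699 TPM, against 116 TPM for mt.Co3 itself. For mt.Nd4l the copy Gm10222 had 904 TPM and the gene 15.3 TPM, with 0 in 21 of 27 libraries. For mt.Nd3 the copy Gm28438 had 169 TPM and the gene 88.3 TPM. The copy of part of mt.Co1, Gm29216, had a mean of 713 TPM, and that of mt.Co2, Gm28661, 254 TPM against 1065 TPM for the gene. How the reads of these pairs were divided was not tested, so the single values of these genes are uncertain, and the ratio of the nuclear to the mitochondrial sum is given below also with the copies added. Of the nuclear members, 6 have a near-identical copy, and only that of Atp5g2, Gm10175, was high, at 101 TPM against 40.1 TPM for Atp5g2.

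The promoters of the nuclear members were examined for short core motifs of transcription factors known to control respiratory genes. Promoter sequences from RefSeq (GRCm38.p6), 250 bases before to 50 after each start site, were matched by symbol for 78 of the 96. Both strands were searched. The NRF1 core CGCATGCG, a palindrome, was in a promoter of 11 of these 78 members (14.1%) and of 2.07% of all 27025 genes with promoters of the same length. The YY1 core AAGATGGC was found for 10 members (12.8%) and 3.19% of all genes, and the ETS core CCGGAAGT, which GABPA can bind, for 5 (6.41%) and 4.31%. At least 1 of these motifs was found for 24 members (30.8%) and 9.03% of all genes. A match is only a run of letters, and its absence says only that these letters are not in the window. The following promoters belong to the complex I assembly factor Ndufaf8, which carries the widest difference reported below, and to complex IV subunits that were higher in GBM than in spleen after treatment, and they show each of the 3 motifs and a promoter without any. Capitals mark the motif.
Ndufaf8 (chr11:120098684-120098983, plus strand, YY1 core): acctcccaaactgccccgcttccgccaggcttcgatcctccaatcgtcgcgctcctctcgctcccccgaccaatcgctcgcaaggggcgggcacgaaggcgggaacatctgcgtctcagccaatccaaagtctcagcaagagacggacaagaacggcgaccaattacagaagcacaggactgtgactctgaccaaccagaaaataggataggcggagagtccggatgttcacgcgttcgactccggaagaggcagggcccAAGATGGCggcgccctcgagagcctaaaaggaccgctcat
Cox8a (chr19:7217567-7217866, minus strand, ETS core at 2 sites on the reverse strand): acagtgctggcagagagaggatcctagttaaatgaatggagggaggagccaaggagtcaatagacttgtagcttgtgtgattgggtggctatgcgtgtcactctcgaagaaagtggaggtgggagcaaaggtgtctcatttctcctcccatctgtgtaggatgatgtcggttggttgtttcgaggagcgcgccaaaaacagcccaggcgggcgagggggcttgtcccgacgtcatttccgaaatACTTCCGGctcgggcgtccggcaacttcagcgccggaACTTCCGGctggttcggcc
Cox6a1 (chr5:115348909-115349208, minus strand, NRF1 core): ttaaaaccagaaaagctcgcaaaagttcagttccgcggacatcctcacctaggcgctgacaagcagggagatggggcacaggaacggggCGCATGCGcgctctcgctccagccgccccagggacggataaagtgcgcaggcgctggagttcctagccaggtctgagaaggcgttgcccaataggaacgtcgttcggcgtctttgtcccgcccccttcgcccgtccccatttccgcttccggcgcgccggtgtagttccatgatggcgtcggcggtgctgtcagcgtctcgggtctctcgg
Cox5a (chr9:57520982-57521281, plus strand, none of the 3): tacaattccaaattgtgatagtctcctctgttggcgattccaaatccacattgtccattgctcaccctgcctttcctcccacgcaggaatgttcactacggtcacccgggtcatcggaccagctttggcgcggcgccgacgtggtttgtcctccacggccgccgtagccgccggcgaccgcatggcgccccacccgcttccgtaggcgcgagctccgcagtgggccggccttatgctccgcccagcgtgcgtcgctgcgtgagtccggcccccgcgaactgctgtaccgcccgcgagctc

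The summed levels of the nuclear and of the mitochondrial members were ordered differently across the 4 groups. The summed nuclear level was 813 to 11461 TPM with a median of 3881 in spleen after IgG2a, 1440 to 9761 with a median of 4796 in spleen after αPD1 + αGITR, and 5895 to 12164 with a median of 9194 in GBM after αPD1 + αGITR. In GBM after IgG2a it was 4478, 5788, 6799, 6817 and 11239 TPM. The lowest sums were all splenic, and all 7 treated tumors lay above the median of the treated spleens, with 3 above every treated spleen and 2 above every control tumor. The summed mitochondrial level was 3015 to 75505 TPM with a median of 4928 in spleen after IgG2a, 1786 to 40613 with a median of 5884 in spleen after αPD1 + αGITR, and 1962 to 15432 with a median of 3534 in GBM after αPD1 + αGITR. In GBM after IgG2a it was 2717, 3616, 9592, 33909 and 41719 TPM. In every group the highest library was at least 7.87-fold above the lowest, and the groups overlapped.

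**Figure D2:**
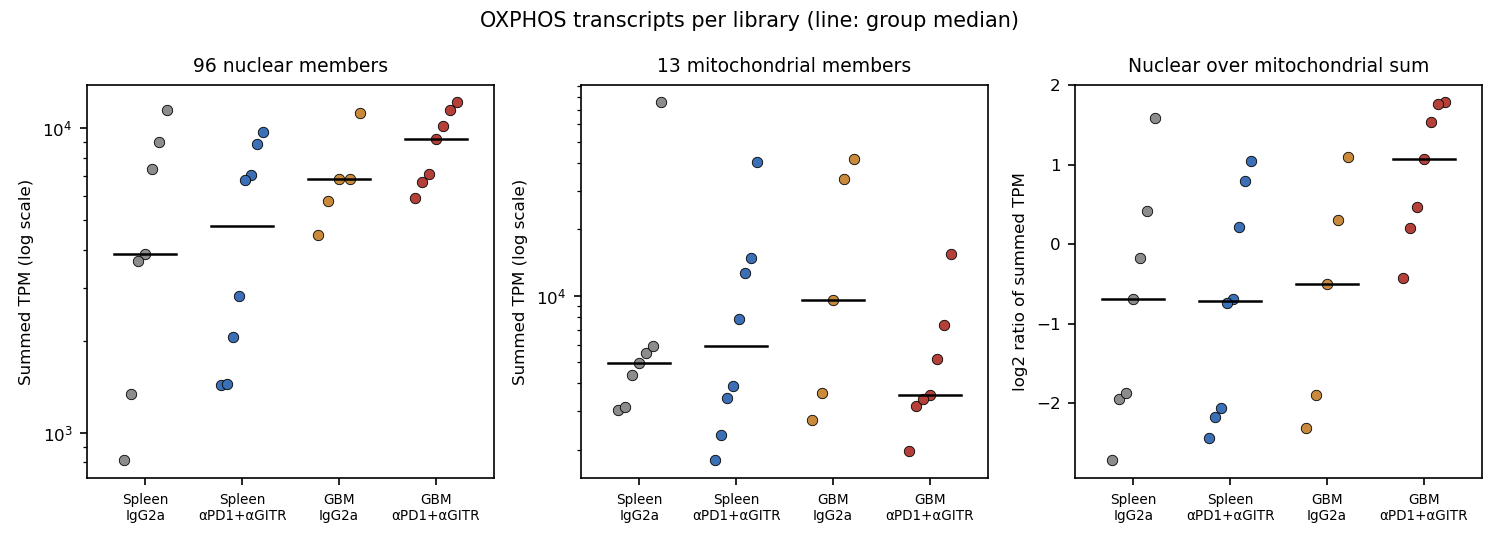
Summed TPM of the 96 nuclear members (left, log axis), of the 13 mitochondrial members (middle, log axis) and the log2 ratio of the sums (right) in each library of the 4 groups, with the group median as a line. The treated tumors have the highest median ratio, 1.07, and the medians of the other groups lie between -0.71 and -0.50.

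The ratio of the sums set the treated tumors somewhat apart. The log2 ratio of nuclear to mitochondrial level was 0.91 ± 0.86 (SD, n = 7) in GBM after αPD1 + αGITR, against -0.66 ± 1.44 (n = 5) in GBM after IgG2a, -0.76 ± 1.37 (n = 8) in spleen after αPD1 + αGITR and -0.77 ± 1.51 (n = 7) in spleen after IgG2a. All 7 treated tumors were above the median of the control tumors, and 3 were above every control tumor. The range of the treated tumors, -0.43 to 1.78, nonetheless overlapped those of the 3 other groups. With the nuclear copies added to the mitochondrial sum the difference between treated and control tumors was 1.64 instead of 1.57. Leaving out the control libraries tumor_369_a, with the fewest detected genes, and tumor_79_a, with the highest macrophage and microglia markers, lowered the difference to 0.61. No test was run on these ratios, because the members were chosen with results of these data known.

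The first comparison asked how αPD1 + αGITR changed oxidative phosphorylation genes in GBM Treg cells. Most nuclear members tested were higher after treatment, as were most features, and every mitochondrial member was lower. Of 79 nuclear members tested, 64 were higher (81.0%, next to 71.6% of all 7848 features tested), with a median log2 difference of 0.78, while the median over all features was 0.62. At an unadjusted p under 0.05 and more than 2-fold (limma), 17 nuclear members were called higher and 0 lower. That is 21.5% of the members, next to 16.8% of all features called higher. The 17 became 3 under quantile normalization or with all 4 groups in one fit, 7 without the 10 most abundant features, 10 with library weights and 11 under TMM-type factors. None passed the Benjamini-Hochberg adjusted threshold, nor did any of the features tested, of which 1749 had an unadjusted p under 0.05 (limma). All 13 mitochondrial members were lower, with a median of -1.21, and 3 were called lower, next to 4.87% of all features. The summed Treg markers moved with the nuclear members, from 1008 ± 325 TPM (SD, n = 5) in the control tumors to 1332 ± 245 TPM (n = 7) in the treated ones. Medians of other markers were lower in the treated tumors. They went from 93.7 to 69.15 TPM for macrophages and microglia, 52.0 to 23.6 TPM for neurons and glia and 49.9 to 17.6 TPM for hemoglobin. Those of the CD8 T cell markers were 8.91 and 9.10 TPM. The part of all these in the differences was not tested.

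By complex, the called nuclear genes belonged to all 5 complexes, next to 16.8% of all features called higher in this comparison. In complex I these were 6 of 35 subunits, near that share, with a median log2 difference of 0.96. Ndufb11, an accessory subunit of the membrane arm on chromosome X (GRCm38, 20615326 to 20617619, minus strand), was at 1.45, 13.3, 17.8, 22.0 and 22.5 TPM in the control tumors and at 24.1 to 66.7 TPM with a median of 39.6 in the treated ones. Every treated tumor was above every control tumor, as was so for 1.77% of all features tested. Its log2 difference was 1.71 ± 0.62 (SE) with an adjusted p of 0.149 (limma), and a two-sided exact permutation test gave p = 0.00126, the smallest it can give. Ndufa2, another accessory subunit of complex I, had a log2 difference of 1.67 ± 0.58, with 4 of 7 treated tumors above all control tumors. Of the 3 Ndufaf assembly factors tested, 0 were called.

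In complex II, Sdhb, the iron-sulfur subunit, and Sdhd, a membrane anchor, were called higher, at log2 differences of 1.45 ± 0.66 and 1.75 ± 0.73 (SE), whereas Sdha, the flavoprotein, was at 0.15 ± 0.54. In complex III only Uqcrq of 8 subunits was called, next to 16.8% of all features, and its log2 difference was 1.78 ± 0.68. Its control values were 2.39, 29.6, 51.9, 78.9 and 79.5 TPM and its treated values 44.2 to 197 TPM with a median of 129, so that 6 of 7 treated tumors were above all control tumors. In complex IV, 3 of 12 members were called. Cox5b was at 90.6, 164, 359, 386 and 496 TPM in the control tumors and at 295 to 716 TPM with a median of 605 in the treated ones, a log2 difference of 1.13 ± 0.43. Cox4i1, the most used isoform of subunit IV, was at 0.08 ± 0.42. In complex V, 5 of 15 subunits were called, among them Atp5e and Atp5g2, a c-ring gene, at 1.49 ± 0.60 and 1.48 ± 0.63. The catalytic subunit Atp5b was at 0.31 ± 0.43.

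The lower mitochondrial level rested on 2 control tumors. For mt.Cytb (mitochondrial DNA, 14145 to 15288) the control values were 341, 352, 811, 3522 and 4375 TPM, and the treated values were 171 to 1610 TPM with a median of 294. Its log2 difference was -1.54 ± 0.64 (SE), with an adjusted p of 0.185 (limma) and an exact permutation p of 0.0896. The other called genes were mt.Nd1, at -1.30 ± 0.56, and mt.Co1, at -1.27 ± 0.60, whose level is uncertain because of its nuclear copy. In each, the high values came from tumor_369_a and tumor_79_a, and the remaining control tumors lay within the range of the treated ones. Without both of these libraries the median of the mitochondrial members was 0.10 and 0 were called. Without tumor_369_a alone it was -0.73 and without tumor_79_a alone -0.76. The count of 3 moved to 0 without tumor_369_a, tumor_79_a or treated tumor_80_a, to 1 without treated tumor_70_a, tumor_70_b or tumor_74_a, to 2 without tumor_73_b, to 7 without tumor_77_a or tumor_73_a and to 10 without tumor_78_a. The nuclear calls moved as well, to 4 without tumor_369_a, 28 without tumor_79_a and 11 without both, and to 8, 9, 10 and 10 without treated tumor_73_a, tumor_70_b, tumor_70_a or tumor_72_a, while the nuclear median stayed between 0.38 and 0.97 when any library was left out. Library tumor_369_a has the fewest detected genes of all libraries and tumor_79_a the highest macrophage and microglia markers. Among the treated tumors, tumor_73_a was highest both in the mitochondrial sum, at 15432 TPM, and in these markers, at 1118 TPM. The part of detection or of other cells in these differences was not tested.

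**Figure D3:**
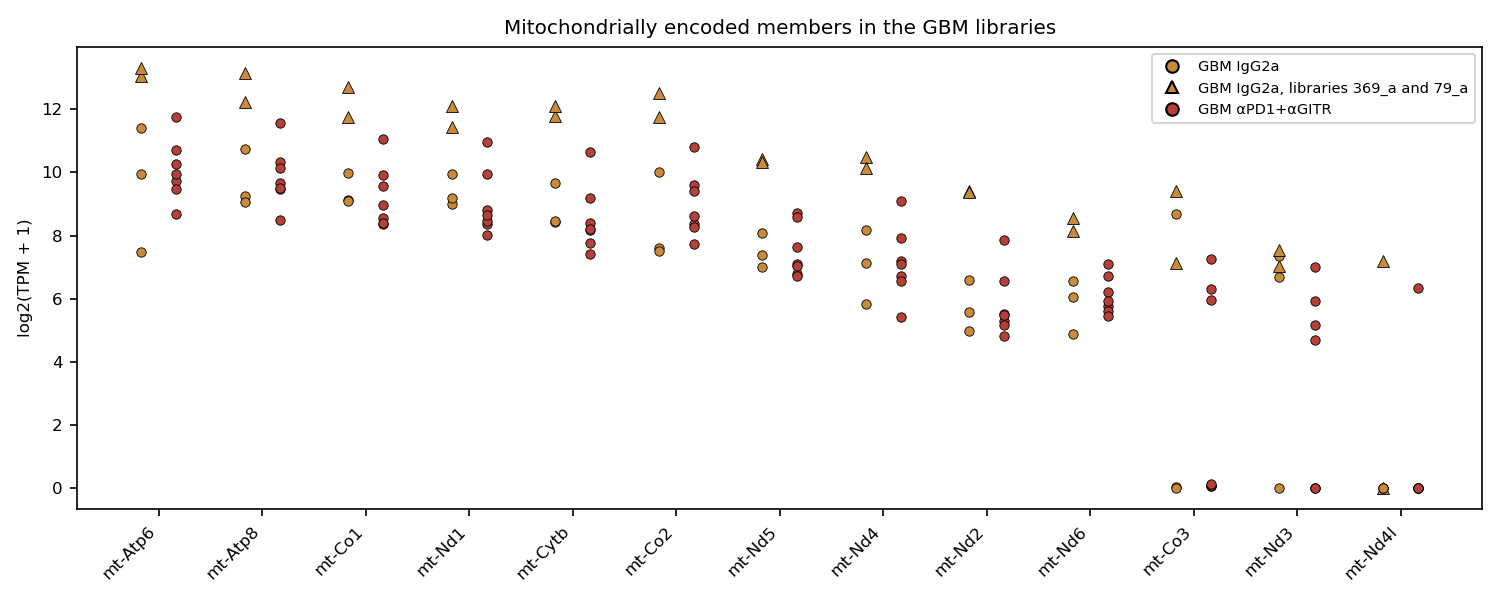
log2(TPM + 1) of the 13 mitochondrial members, ordered by mean level, in the 5 control tumors (orange) and 7 treated tumors (red). Triangles mark the control libraries tumor_369_a and tumor_79_a, which lie above the other 3 control tumors for mt.Cytb, mt.Nd1 and mt.Co1.

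In splenic Treg cells the same treatment gave 1 call among these genes. Of 76 nuclear members tested 35 were higher (46.1%, next to 58.1% of all 6634 features) and 41 lower. Their median log2 difference was -0.06, next to 0.15 for all features. The 13 mitochondrial members had a median of -0.15, and 0 were called. Neither median kept its sign when single libraries were left out, the nuclear one lying between -0.42 without spleen_79_a and 0.22 without spleen_79_b, and the mitochondrial one between -0.51 without spleen_74_a and 0.45 without spleen_79_b. Only 1 of the 76 nuclear members was called, while 2.53% of all features were called in either direction and 0 passed the adjusted threshold, with 168 features at an unadjusted p under 0.05 (limma). The spread was wide. Cox8a was at 10.8 to 605 TPM after IgG2a and at 29.0 to 591 TPM after αPD1 + αGITR, and its log2 difference was 0.02 ± 0.83 (SE).

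The exception was Ndufaf8, an assembly factor needed for complex I, on chromosome 11 (GRCm38, 120098928 to 120100705, plus strand). It was at 14.6, 18.2, 20.6, 35.2, 36.1, 51.5 and 53.4 TPM in the IgG2a spleens. In the treated spleens it was 0 in 3 of 8 and otherwise 0.45, 2.02, 5.20, 13.5 and 14.3 TPM. Every treated spleen was below every control spleen. The share of the 6634 features tested whose groups did not overlap was 0.0151%, which is Ndufaf8 alone and so gives no background for it. Ndufaf8 passed the filter of a mean above 10 TPM only through the IgG2a spleens, with a mean of 32.8 TPM against 4.44 TPM after treatment, and is not tested when the filter is required in both groups. Its log2 difference was -3.36 ± 0.76 (SE), with an unadjusted p of 0.000135, an adjusted p of 0.449 (limma) and an exact permutation p of 0.000932. The difference was negative, from -4.85 to -1.58, under the 26 alternatives that kept it in the test, with adjusted p between 0.166 and 1.0. Ndufaf8 was singled out by the rule of the lowest p in each comparison. In GBM its values were 0, 7.43, 24.05, 25.4 and 108 TPM after IgG2a and 12.8 to 42.1 TPM with a median of 27.8 after treatment, groups that overlapped. The second lowest p among the nuclear members was that of Sdhaf1, a complex II assembly factor, at -0.86 ± 0.64 (adjusted p = 1.0, limma), and the third that of Uqcrb, at 1.32 ± 1.00.

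**Figure D4:**
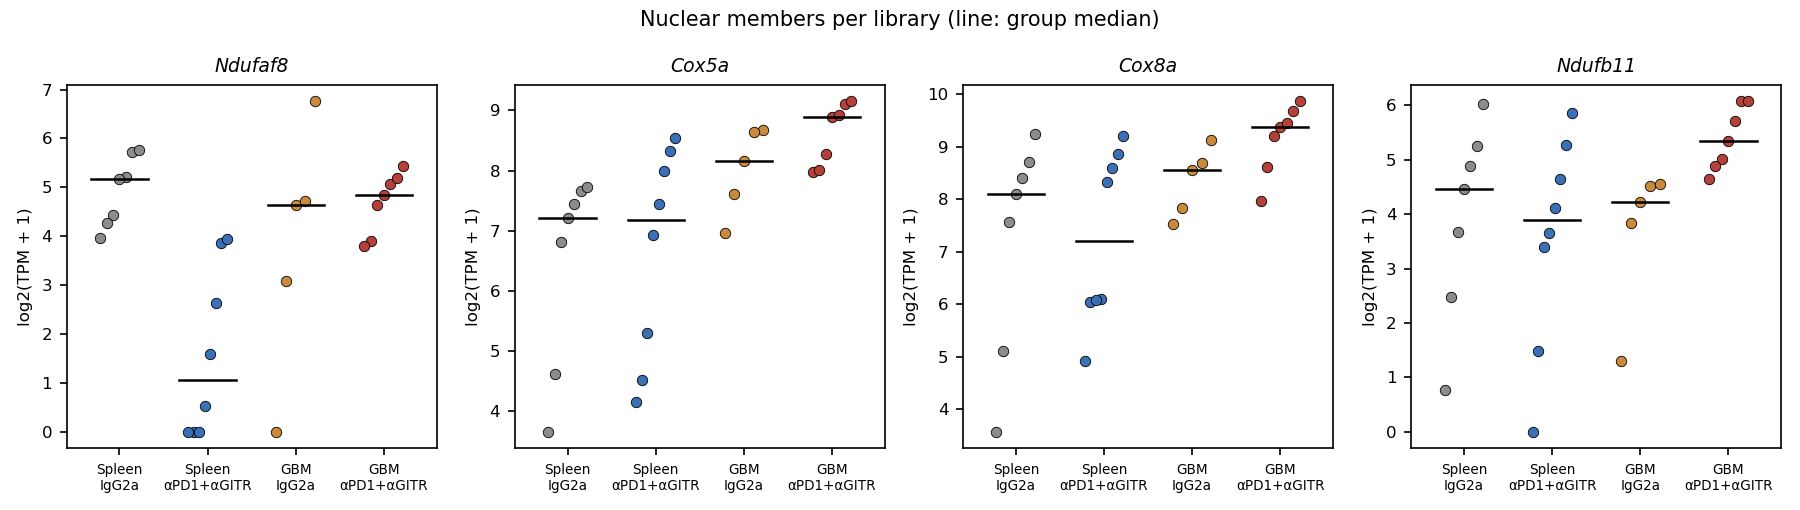
log2(TPM + 1) of Ndufaf8, Cox5a, Cox8a and Ndufb11 in each library of the 4 groups, with the group median as a line. Ndufaf8 is lower in all 8 treated spleens than in the 7 control spleens, and Ndufb11 is higher in all 7 treated tumors than in the 5 control tumors.

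GBM and splenic Treg cells were then compared after IgG2a. Of 79 nuclear members tested, 54 were higher in GBM (68.4%, next to 66.1% of all 7380 features), with a median log2 difference of 0.74, against 0.48 for all features. The nuclear median was 0.34 without spleen_79_a and 1.01 without spleen_79_b. Called higher were 4, or 5.06% of the members, next to 7.63% of all features. Among them were the complex III subunits Uqcrb and Uqcrh, at 2.86 ± 1.06 and 1.90 ± 0.89 (SE), and Cox6b1 of complex IV, at 2.50 ± 0.97, and every called member had an adjusted p over 0.05 (limma). Cox6b1 was at 35.8, 40.9, 68.1, 208 and 400 TPM in the tumors and at 0 to 124 TPM with a median of 33.5 in the spleens. Its highest values were again those of tumor_79_a and tumor_369_a, and without both libraries 0 nuclear members were called. The count was 1 without tumor_369_a and 2 without tumor_79_a, 7 without tumor_77_a, 2 without spleen_79_a or spleen_79_c, 9 without spleen_76_a or spleen_77_a, and 15 without spleen_79_b. The mitochondrial members had a median of 0.66 and 0 calls, and the median turned to -0.56 without both libraries. The summed Treg markers were at 167 to 1525 TPM with a median of 460.3 in these spleens and at 842 to 1588 TPM with a median of 868 in these tumors. The median of the macrophage and microglia markers was 28.5 TPM in the spleens and 93.7 TPM in the tumors, and that of the hemoglobin transcripts 1559 and 49.9 TPM. For summed neuron and glia markers it was 7.24 and 52.0 TPM. The part of these in the tissue difference was not tested.

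After αPD1 + αGITR nearly all of the nuclear members tested were higher in GBM than in spleen. Of the 79 tested 78 were higher in GBM Treg cells (98.7%, next to 77.6% of all 7506 features). Their median log2 difference was 1.39, against 0.95 for all features. Called higher were 43 (54.4%), next to 33.9% of all features, and 0 were called lower. Among the 43, Ndufaf8, Atp5s, Ndufaf3 and Ndufb3 passed the filter only through the tumors, where they are high. The means of Ndufaf3 and Ndufb3 were 18.7 and 15.4 TPM in the tumors and 8.84 and 8.07 TPM in the spleens. Ndufa9 and Sdhaf4, higher but not called, also passed only through the tumors. The counts of 78 and 43 are thus not free of the filter. The 43 became 22 under quantile normalization. Past the adjusted threshold were 12 (15.2%), a share near the 15.8% of all features that were past it and higher. The mitochondrial members had a median of -0.52, with 2 higher and 11 lower, and 0 were called. This median was -0.12 without spleen_74_a and -0.83 without spleen_70_b. The only nuclear member tested that was lower in GBM was the assembly factor Ndufaf6, which passed the filter only through the spleens, with a mean of 15.7 TPM against 7.29 TPM. No nuclear member had groups that did not overlap, while 2.96% of all features were higher in every treated tumor than in every treated spleen. The summed Treg markers moved the same way, from 619 ± 368 TPM (SD, n = 8) in the treated spleens to 1332 ± 245 TPM (n = 7) in the treated tumors. Medians were also higher in the tumors for macrophage and microglia markers, at 69.15 against 48.8 TPM, and neuron and glia markers, at 23.6 against 16.5 TPM. For CD8 T cell markers they were 9.10 against 4.9 TPM. The hemoglobin transcripts moved the other way, from a median of 6832 TPM to 17.6 TPM, as did the B cell markers, from 1.86 to 0.34 TPM. Their part in the tissue difference was not tested.

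Every complex had members that were called, next to 33.9% of all features called higher. The counts below were near that share in complexes II and III. The median log2 difference was 1.496 over 34 complex I subunits, 0.83 over 3 of complex II, 1.35 over 8 of complex III, 1.68 over 12 of complex IV and 1.22 over 15 of complex V, and 20, 1, 3, 10 and 6 of them were called. Among the 12 genes past the adjusted threshold were Ndufaf8, Ndufb9, Ndufb7, Ndufs8 and Ndufc1 of complex I, Sdhb of complex II, Cox5a, Cox8a and Cox7a2 of complex IV, and Atp5d and the coupling factor Atp5s of complex V. Atp5s passed the filter only through the tumors, with a mean of 14.2 TPM against 2.71 TPM in the spleens. Cox5a was at 250 to 569 TPM with a median of 473 in the tumors and at 16.9 to 373 TPM with a median of 147 in the spleens, and 4 of 7 tumors were above all spleens. Its log2 difference was 1.97 ± 0.62 (SE), with an adjusted p of 0.0345 (limma) and an exact permutation p of 0.0103. Cox8a was at 248 to 935 TPM with a median of 663 against 29.0 to 591 with a median of 193, a log2 difference of 1.90 ± 0.60 (adjusted p = 0.0349, limma). Sdhb was at 63.5 to 243 TPM with a median of 122 against 9.60 to 112 with a median of 51.0, a log2 difference of 1.64 ± 0.55 with 5 of 7 tumors above all spleens.

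Ndufaf8 had the lowest p here too, at a log2 difference of 3.13 ± 0.69 (SE) and an adjusted p of 0.00587 (limma), with 5 of 7 tumors above all spleens. Since this comparison shares the treated spleens with that of the splenic treatment, its size is not separate evidence. Here it passed the filter only through the tumors. Its adjusted p was from 0.00199 to 0.0341 in the 27 alternatives that kept it in the test, and it is not tested with the filter required in both groups. The count of 12 was 3 with that filter. It fell to 1 without treated spleen_70_a, spleen_70_b or spleen_72_b or treated tumor_70_a, tumor_70_b, tumor_72_a or tumor_73_a, to 4 without spleen_72_c or tumor_74_a, to 7 without tumor_80_a and to 8 without tumor_73_b, and rose to 18, 24, 26 and 31 without treated spleen_70_c, spleen_80_a, spleen_73_a or spleen_74_a. The nuclear median was between 1.14 and 1.64 in these. Among the treated spleens the lowest summed nuclear level, 1440 TPM in spleen_70_a, stood beside the highest share of the 10 most abundant features, 76.5%, and the highest, 9761 TPM in spleen_74_a, beside the lowest share, 40.1%. The part of this composition in the tissue difference was not tested.

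**Figure D5:**
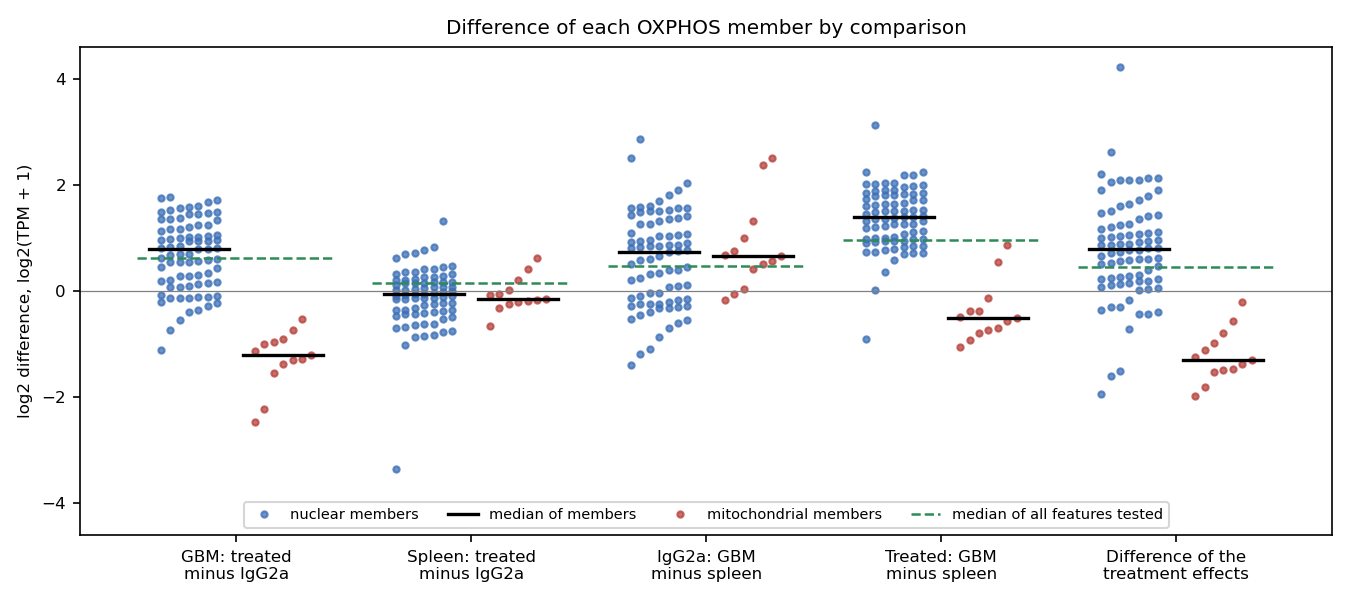
log2 difference of each tested member, nuclear in blue and mitochondrial in red, in the 4 comparisons and in the difference of the treatment effects between GBM and spleen. Black lines are the medians of the members and dashed green lines the median of all features tested. The nuclear and mitochondrial members lie on opposite sides of 0 by their medians in GBM after treatment, between the treated tissues and in the difference of the effects.

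Whether the treatment effect differed between the tissues was tested as an interaction over all 4 groups. The nuclear members had a median of 0.79, against 0.45 for all 8687 features. Above 0 were 69 of 80 (86.25%), next to 63.5% of all features. All 13 mitochondrial members were below 0, with a median of -1.31. Called were 3 nuclear members (3.75%), all with a more positive effect in GBM, next to 6.8% of all features in that direction. These were Ndufaf8, at 4.22 ± 1.13 (SE), Atp5s, at 2.63 ± 1.10, and Uqcrq, at 2.13 ± 0.99. Atp5s has a mean above 10 TPM only in the treated tumors and Ndufaf8 has one below it in the treated spleens, so neither is tested with the filter in every group, where 1 nuclear member was called. None was past the adjusted threshold (limma, lowest adjusted p of 0.314), and 0 of all features were, while 1056 had an unadjusted p under 0.05. The count of 3 was 9 without spleen_79_a, 7 without spleen_79_d, 6 without spleen_74_a or spleen_80_a, 5 without spleen_70_c, tumor_78_a or tumor_79_a, and 1 without tumor_73_a. Of the mitochondrial members 0 were called, and their median turned to 0.07 without tumor_369_a and tumor_79_a.

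Genes that work next to these complexes but fall outside the symbol rule were followed in 5 lists. Of 38 assembly factors and electron carriers, 26 were tested between the treated tissues, 21 were higher in GBM, 11 were called higher (42.3%, next to the 33.9% of all features) and 0 lower, and the median was 1.07, next to 0.95. Among them were the copper chaperones of complex IV Sco1, at 2.69 ± 0.63 (SE, limma adjusted p = 0.00809), and Cox17, at 2.68 ± 0.83 (adjusted p = 0.0328, limma). In GBM after treatment 3 of 25 were called higher, or 12% next to 16.8% of all features. These were the complex IV assembly factor Surf1, Cyc1, the cytochrome c1 of complex III, at 1.78 ± 0.78, and Coq9, which serves ubiquinone synthesis. Surf1 was at 2.65 ± 0.84 (adjusted p = 0.116, limma). Of 19 TCA cycle and pyruvate carrier genes all were tested between the treated tissues, 17 were higher, 5 were called higher (26.3%, next to 33.9% of all features) and the median was 0.96, near that of all features. Mpc2, a subunit of the mitochondrial pyruvate carrier, was at 2.55 ± 0.79 (adjusted p = 0.0335, limma). Of 12 genes of the outer membrane and protein import, 12 were higher in GBM after treatment, with a median of 1.01 and 3 called, next to a median of 0.62 and 16.8% called higher of all features. The median of this list was 0.73 between the treated tissues, where all features had 0.95, and -0.37 after IgG2a, where all features had 0.48.

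The genes that make and keep mitochondrial RNA formed another list. Of 26 listed, 25 were in the table and 13 were tested in GBM after treatment, 8 were higher, 2 were called higher (Fastk and Polg2; 15.4%, next to 16.8% of all features) and the median was 0.27, below the 0.62 of all features. Tfam, which packages mitochondrial DNA and starts its transcription, had a log2 difference of 1.18 ± 0.84, Polrmt, the mitochondrial RNA polymerase, of -0.57 ± 0.78, and Lrpprc, which stabilizes mitochondrial mRNA, of -0.61 ± 0.88 (SE). Of 10 nuclear regulators of mitochondrial biogenesis, 7 were tested there and 0 were called. Nrf1 was at 1.24 ± 0.70 and Gabpa at -0.41 ± 0.93. The 2 mitochondrial ribosomal RNAs, made from the same genome, had a median summed level of 7624 TPM in the control tumors and 4607 TPM in the treated ones, and their ratio to the mitochondrial mRNAs was 1.32 ± 0.91 (SD, n = 5) and 1.28 ± 0.39 (n = 7).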

How the data were processed

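Treg cells sorted from spleen and GBM were profiled by Smart-Seq2, a full-length cDNA protocol for small inputs. Per the study's methods and the submitters' processing notes, the authors aligned reads with TopHat2 to mm10 and deposited RSEM TPM, whose table holds TPM + 1. From this 1 was subtracted. Read totals are not given, so depth and counting error are unknown. Of 28 described libraries 27 were used. 1 value column without a name was not used, and 1 treated spleen is not analysed here. Of 351 pairs of libraries 0 were identical.

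Features with a mean above 10 TPM in at least 1 compared group were tested with limma 3.58.1 (R 4.3.3, two-sided, trend) on log2(TPM + 1), so that fold changes of low genes are understated. The interaction used all 4 groups. Called means an unadjusted p under 0.05 and over 2-fold, the threshold the study used. Adjusted p-values are Benjamini-Hochberg over all features tested. Exact permutation tests used mean log2 values, two-sided. Error is the SD between libraries or the SE of the limma coefficient. Positions are from GENCODE annotation of GRCm38, and nuclear copies were found with blastn 2.17.0 at 98% identity or more. The members and lists were chosen with earlier results of these data known. Genes named are all mitochondrial members, 23 chosen nuclear genes, the 8 isoforms, the 5 highest nuclear means and the 3 nuclear members with the lowest p in each of the 4 comparisons of 2 groups, and others named were chosen after their values were seen. The fits were tested on simulated data: at a log2 change of 2, 44% of changed genes passed the adjusted threshold for treatment in GBM and 14% in spleen. Each gene was shuffled separately there, so shifts shared by the genes of a library are absent. Only genes above a higher mean than the filter were changed. These shares may therefore not hold for the real data. Alternatives covered the pseudocount, the filter, scaling, covariates, library weights and leaving out each library. Leaving out tumor_369_a and tumor_79_a together and rescaling to nuclear protein-coding genes were chosen after seeing the data. One item that the naming rule selects is not reported here.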

Additional observations from a re-analysis of the deposited data

Results flagged for a closer look

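Each value here stood apart from its group by Dixon's criterion, or differed between the tissues by the interaction test. Of 188 groups of libraries examined 20 stood apart so. Chance gives about 1 in 20 only for independent groups. These were not independent, since the genes of the same libraries enter many of them. All values are log2(TPM + 1) unless stated.

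In spleen after IgG2a, library spleen_79_b was far above the others in the mitochondrial genes. Its summed mitochondrial level on the log2 scale was 16.20, with the others between 11.56 and 12.53. Its levels were 13.71 for mt.Atp8, 13.08 for mt.Co1, 13.14 for mt.Cytb, 13.41 for mt.Nd1, 9.49 for mt.Nd2, 11.78 for mt.Nd4, 12.32 for mt.Nd5 and 9.97 for mt.Nd6. The nuclear gene Atp5g3 was high in it as well, at 9.32.

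Some values were single zeros or single detections. mt.Co2 was 0 in spleen_79_c of the IgG2a group and 0 in spleen_70_b of the treated group, and mt.Nd3 was 0 in tumor_77_a. mt.Nd4l was 7.20 in tumor_79_a and 6.35 in tumor_72_a, and 0 in the rest of their groups. Among the nuclear genes, tumor_369_a was low for Ndufs1, at 0.084, and Ndufb11, at 1.29. Cox5b was at 8.21 in tumor_73_b, and Sdhaf1 was at 5.00 in spleen_77_a and at 2.63 in spleen_74_a.

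The treatment effect differed between the tissues at an unadjusted p under 0.05 for Uqcrq, by 2.13 (adjusted p = 0.382, limma), and for Ndufaf8, by 4.22 (adjusted p = 0.314, limma). It did so too for Atp5s, by 2.63 (adjusted p = 0.342, limma), a nuclear member of complex V that was named after its value was seen. Atp5s has a mean above 10 TPM only in the treated tumors and Ndufaf8 has one below 10 TPM in the treated spleens, so both entered the test through groups where they are high.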

How the results depend on the processing

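No result changed from a called direction to the opposite one. Counts of calls moved with many choices. In spleen, mitochondrial calls were 0 in 26 of 26 alternatives and nuclear calls 1 in 25 of 27. The nuclear medians kept their sign in GBM and between tissues, and unknown depth limits all low values. The mitochondrial median turned positive for treatment in GBM without tumor_369_a and tumor_79_a (0.10) and for the interaction without both (0.07) and with library weights (0.21). After IgG2a it turned negative without both (-0.56) and with weights (-0.44). For treatment in spleen the mitochondrial median kept its sign in 21 of 26 alternatives and the nuclear one in 18 of 27. The cause of each move was not tested.

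For treatment in GBM, the 17 nuclear calls became 11 under TMM-type factors, 7 after rescaling without the 10 most abundant features, 3 under quantile normalization, 10 with library weights, 3 with all 4 groups in one fit, 11 without tumor_369_a and tumor_79_a, and 4 to 28 when 1 library was left out. The 3 mitochondrial calls became 5, 6, 6, 0, 0 and 0 in that order, 5 with detected genes as a covariate, and 0 to 10 without 1 library. In spleen the single nuclear call became 0 with the filter in every group and 2 with weights.

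Between tissues after IgG2a, the 4 nuclear calls became 0 with weights, 8 with all groups in one fit, 0 without both tumors, and 1 to 15 without 1 library. Mitochondrial calls became 1 under TMM-type factors and 0 to 3 without 1 library. After treatment, the 43 nuclear calls became 22 under quantile normalization and 29 to 58 without 1 library. The 12 past the adjusted threshold became 2 with a pseudocount of 0.1, 1 with no filter, 3 with the filter in every group, 4 without the 10 most abundant features, 2 under quantile normalization, 1 with detected genes, 47 with weights, 1 with all groups in one fit, 4 when rescaled to nuclear protein-coding genes, and 1 to 31 without 1 library. Mitochondrial calls became 1 under TMM-type factors, 5 without the top features, 5 under quantile normalization, 2 when rescaled to nuclear protein-coding genes, and 0 to 2 without 1 library. The 3 nuclear interaction calls became 1 with the filter in every group, 5 without the top features, 13 with weights and 1 to 9 without 1 library, and mitochondrial calls became 1 under quantile normalization and 0 to 2 without 1 library.

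Spleen and tumor libraries share label numbers, but same-numbered libraries did not all deviate together. Correlations were -0.14 to 0.16 over 7 IgG2a pairs and -0.34 to 0.10 over 12 treated pairs. Of these pairs, 4 and 5 also share the letter. What libraries of the same mouse would give is not known, so these correlations cannot decide whether a number marks a shared mouse. Repeated numbers within a tissue were not compared. The main fits did not pair samples by number. With the replicate block, nuclear calls became 1 after IgG2a, 26 after treatment with 1 past the adjusted threshold, and 5 for the interaction, where mitochondrial calls became 2.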
